A study of Mus musculus with 14 samples.

Results

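The genes described here are the 10 panel genes that lie around B3gnt7 on mouse chromosome 1: Cab39, Itm2c, Psmd1 and Armc9 on one side in file order, and Ncl, C130036L24Rik, Ptma, Cops7b, Dis3l2 and Eif4e2 on the other. They were given by name for their place around B3gnt7 in the count tables and are 10 of 472 rows. The 7 other rows between them in file order had means of 6.21 (Nppc) to 31.9 (Ecel1) reads per clone and are not members. B3gnt7 itself, the gene whose RNA was lower in clones lacking the Chen2008-25 enhancer, is not among them. All 10 had enough reads to be tested, with means of 120 (C130036L24Rik) to 5198 (Eif4e2) allelic reads per clone. The question was whether the neighbours changed with the enhancer, on the deleted chromosome alone or on both.

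An enhancer is a stretch of DNA that raises transcription of one or more genes, often skipping others that lie closer. When it is removed from 1 of a pair of homologous chromosomes, a gene it acts on directly loses RNA from that chromosome only, while a change passed on through a protein reaches both copies. The neighbours are mostly housekeeping genes with unrelated tasks. Ncl encodes nucleolin, an abundant nucleolar protein of ribosomal RNA synthesis and processing, Ptma encodes the acidic nuclear protein prothymosin alpha, and C130036L24Rik is a long noncoding RNA. Psmd1 encodes a scaffold subunit of the proteasome cap and Cops7b a subunit of the COP9 signalosome, which removes NEDD8 from cullin ubiquitin ligases. Eif4e2 encodes a cap-binding protein that represses translation, Dis3l2 an exonuclease that degrades uridylated RNA such as the precursor of let-7, Cab39 the scaffold MO25 of the LKB1 kinase complex, Itm2c a membrane protein with a BRICHOS domain, and Armc9 a protein of the ciliary base.

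The samples were 14 clonal lines of female embryonic stem cells of the F1 2-1 129/Castaneus hybrid, whose 129 and Castaneus (CAST) gene copies can be told apart by sequence. They were grown without serum in 2i/LIF medium, with leukaemia inhibitory factor, PD0325901 (a MEK inhibitor) and CHIR99021 (a GSK3 inhibitor), and their polyadenylated RNA was enriched for panel genes by hybrid selection. Of the Chen2008-25 clones, 5 were KO (-/-) and 1, clone E6, was Het (-/+). Of the Chen2008-1 clones, which carry a deletion of another enhancer and serve as controls here, 6 were Het (+/-) and 2 were Het (-/+). Every clone carried a deletion of 1 of these enhancers and all come from 1 hybrid line, so no clone had both loci intact and each line is a single clone. In any difference of level between these sets of clones, the enhancer cannot be told apart from the set. The order of the signs was not stated in the genotype table and was read as 129 before CAST, so that a -/+ clone lacks the enhancer on 129 and a +/- clone on CAST. In E6 the 129 share of B3gnt7 was 26.0% (149 of 574 reads, Wilson 95% interval 22.5 to 29.7%), below all 8 Chen2008-1 clones (47.9 to 56.3%). With the other order, the chromosomes called modified and unmodified in E6 would be exchanged.

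The clones had 135881 to 1331965 allelic reads, of which 48.5 to 52.1% were from 129. The clones D10 (Chen2008-1 -/+), G2 and H4 (KO) and H7 (Chen2008-1 +/-) had fewer than 400000 reads. The panel held 0 of 8 fixed markers of pluripotent stem cells and 0 of 6 markers of fibroblasts, so the cell type could not be checked by them. Of 11 markers of early differentiation it held Krt8 and Krt18, keratin genes of simple epithelia, and both were lower in KO clones than in Chen2008-1 clones (log2 differences -2.35 and -1.34, edgeR adjusted p = 5.96e-08 and 0.000705) and in E6 (-2.41 and -4.17, adjusted p = 0.000411 and 0.00122). All 3 X-linked genes listed were in it: in KO clones Xist was at -0.48 (adjusted p = 0.0303), Tsix at -0.59 (adjusted p = 0.00629) and Rlim at 0.51 (adjusted p = 5.38e-05). In E6, a single clone, the estimates were -0.48 for Xist, -0.49 for Tsix and 0.71 for Rlim, and those of Xist and Tsix did not pass. These keratin and X-linked genes differed between the KO and Chen2008-1 clones, and their part in the neighbours' levels was not tested. Levels are given in CPM, the allelic reads of a gene scaled to library size after TMM (edgeR's correction for composition), and so are relative to the rest of the panel. In bulk RNA, less RNA per cell cannot be told apart from fewer cells expressing a gene.

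In totals of both alleles, 6 of the 10 neighbours were higher in the KO clones than in the Chen2008-1 clones and 0 were lower (edgeR quasi-likelihood test, adjusted p under 0.05). Of all 448 genes tested, 62.1% passed in this comparison, 28.6% higher and 33.5% lower. The median log2 difference was 0.19 over the neighbours and -0.02 over all genes tested. The genes that rose were Ncl, Cab39, Itm2c, Cops7b, Eif4e2 and Psmd1, from the largest estimate to the smallest. Armc9, C130036L24Rik, Ptma and Dis3l2 did not pass, and by unadjusted p under 0.05 Dis3l2 would be the only one counted as lower. By that threshold 7 of the 10 neighbours and 292 of the 448 genes would count in either direction. In E6, 3 neighbours passed (Ncl, Cab39 and Eif4e2), all higher, where 34.8% of all genes passed, 16.7% higher and 18.1% lower. Since E6 is a single clone, the fit took its spread from the other groups. E6 lay above all Chen2008-1 clones in 5 of 10 neighbours, adding Itm2c and Psmd1, and below all of them in 0, against 28.8% and 30.6% of all genes. Both comparisons share their control clones.

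**Figure D1:**
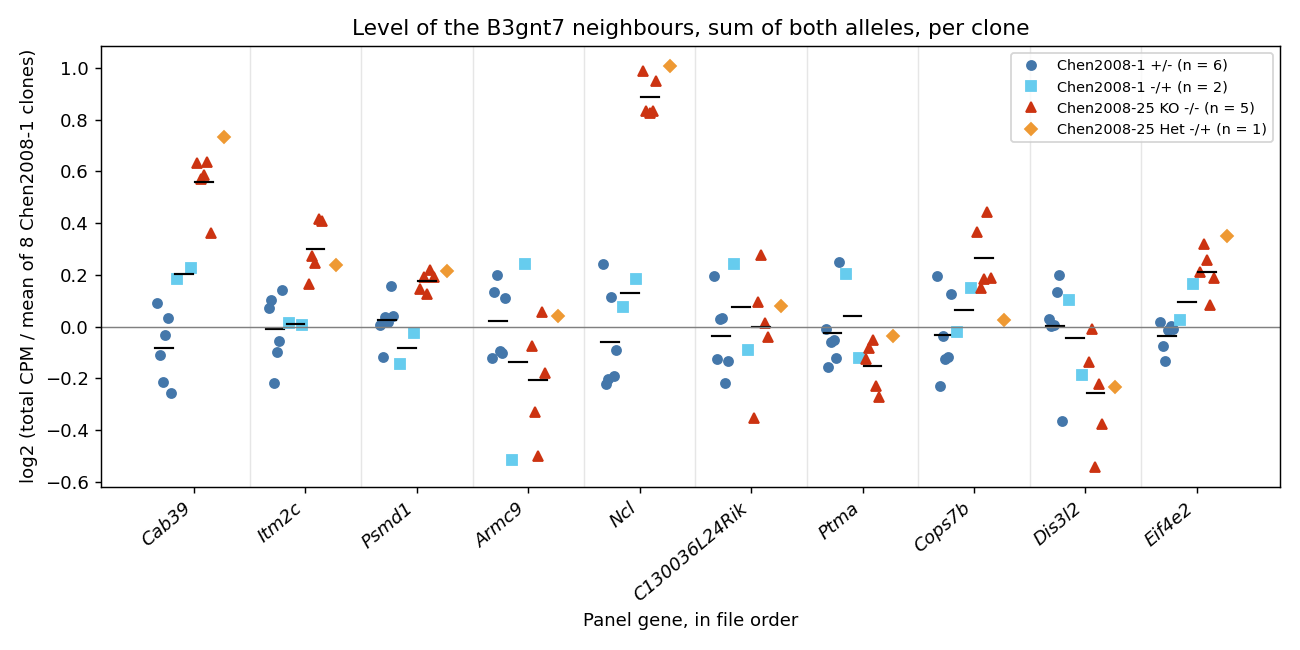
Level of each neighbour of B3gnt7 in each clone, as log2 of total CPM over the mean of the 8 Chen2008-1 clones (vertical axis), by gene in file order (horizontal axis). Points are clones, marked by group, and black bars are means of groups with more than 1 clone. All KO and Het points of Ncl and Cab39 lie above all Chen2008-1 points, while those of Armc9, C130036L24Rik and Dis3l2 overlap with them.

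Ncl had the largest difference. Its total level was 3985 CPM in KO clone B4, 3587 in C4, 3563 in G2, 3588 in H2 and 3883 in H4, and 4044 CPM in E6. In the 8 Chen2008-1 clones it ran from 1723 CPM over a median of 2004 to 2380 CPM. The KO clones and E6 were thus all above every Chen2008-1 clone, and the KO clones differed little among themselves. Taking the log2 difference of the fit back to a percentage, the KO level was 185% of the Chen2008-1 level (95% interval 165 to 208%, log2 difference 0.89, SE 0.08, edgeR adjusted p = 7.83e-08). That of E6 was 201% (164 to 246%, log2 difference 1.01, SE 0.14, adjusted p = 6.87e-05).

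C130036L24Rik begins next to Ncl and runs the other way. In RefSeq the start sites of this pair lie head to head, with 128 bases of build GRCm38.p6 between them (chr1:86359456-86359583), 71.9% of them G or C. The files use mm9, so the position holds for the reference only. These bases are shown because they are upstream of both genes, whose ratio differed between the clone sets. They are given on the plus strand, the strand of C130036L24Rik, and capitals mark the sequence GGGCGG.
Ncl and C130036L24Rik: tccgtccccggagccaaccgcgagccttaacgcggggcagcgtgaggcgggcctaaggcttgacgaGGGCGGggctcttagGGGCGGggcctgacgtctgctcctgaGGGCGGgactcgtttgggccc
The stretch holds GGGCGG at 3 places.

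The level of C130036L24Rik was 141 CPM in KO clone B4, 193 in C4, 219 in G2, 182 in H2 and 176 in H4, and 191 CPM in E6. The Chen2008-1 clones ran from 155 CPM over a median of 177 to 213 CPM. The groups overlapped: 1 KO clone lay above and 1 below all Chen2008-1 clones. The KO level was 101% of the Chen2008-1 level (95% interval 82.7 to 122%, edgeR adjusted p = 0.960) and that of E6 was 107% (75.0 to 152%, adjusted p = 0.793). The KO interval of C130036L24Rik thus ends below the interval of Ncl, which starts at 165%.

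The reads of Ncl over those of C130036L24Rik in the same clone give a comparison that needs no scaling between clones. It was chosen after the values were seen. The ratio was 28.2 in KO clone B4, 18.6 in C4, 16.3 in G2, 19.7 in H2 and 22.1 in H4, and 21.2 in E6, against 9.48 to 13.5 in the 8 Chen2008-1 clones. The KO clones and E6 were all above the highest Chen2008-1 clone. The mean log2 ratio was 4.36 ± 0.30 (SD, n = 5) in KO and 3.47 ± 0.16 (SD, n = 8) in Chen2008-1 clones, a difference of 0.89 that is near that of Ncl alone. The difference was 0.92 on the 129 copies and 0.81 on the CAST copies. Since the pair was chosen for its pattern, these are descriptions with no test. On CAST the lowest KO clone, G2, was at 22.5 and the highest Chen2008-1 clone, D10, at 23.0, the only overlap. D10 rests there on 6 CAST reads of C130036L24Rik.

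**Figure D2:**
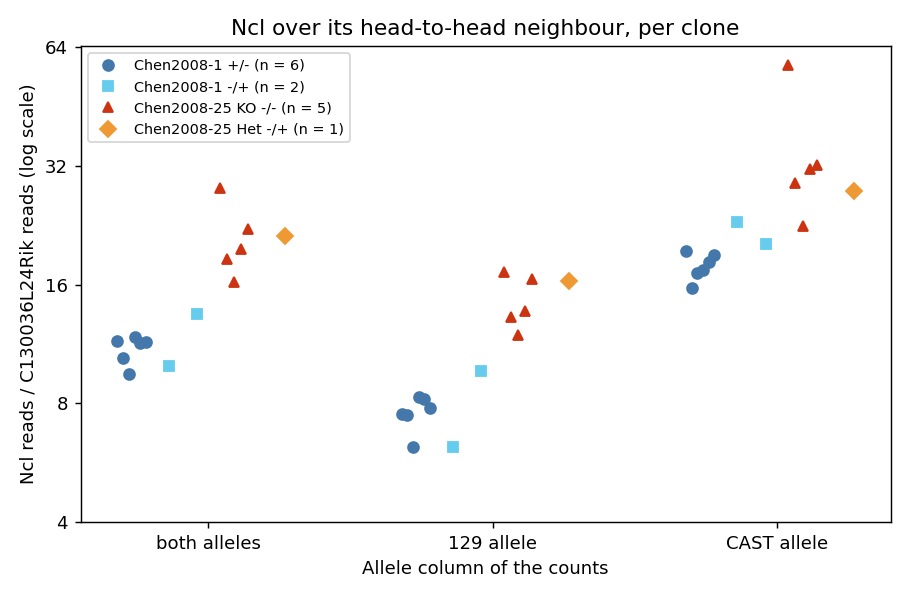
Reads of Ncl divided by reads of C130036L24Rik in each clone (vertical axis, log scale), for both alleles together and for each allele (horizontal axis). Points are clones, marked by group. With both alleles together the Chen2008-25 clones lie at 16.3 to 28.2 and the Chen2008-1 clones at 9.48 to 13.5.

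Cab39 was next in size. Its total level was 777 CPM in B4, 744 in C4, 751 in G2, 779 in H2 and 644 in H4 of the KO clones, and 833 CPM in E6. The Chen2008-1 clones ran from 419 CPM over a median of 501 to 586 CPM, below every KO clone. The KO level was 148% (95% interval 130 to 170%, log2 difference 0.57, SE 0.09, edgeR adjusted p = 4.51e-05). That of E6 was 167% (132 to 211%, adjusted p = 0.00207). The 2 Chen2008-1 -/+ clones, at 569 and 586 CPM, were the highest of the controls. The sequence before its start is shown for comparison with the Ncl stretch (RefSeq, GRCm38.p6, chr1:85793191-85793440, plus strand, capitals mark CCGCCC, which is GGGCGG on the other strand).
Cab39: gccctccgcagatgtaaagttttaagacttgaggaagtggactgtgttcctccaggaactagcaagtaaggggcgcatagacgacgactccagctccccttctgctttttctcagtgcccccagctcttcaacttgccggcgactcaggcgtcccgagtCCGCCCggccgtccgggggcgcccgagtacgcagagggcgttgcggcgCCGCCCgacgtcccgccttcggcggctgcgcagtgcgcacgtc

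Itm2c had 3113 CPM in B4, 3356 in C4, 3288 in G2, 3707 in H2 and 3682 in H4 of the KO clones, and 3270 CPM in E6. The Chen2008-1 clones lay between 2386 and 3061 CPM with a median of 2798. Here too the KO clones and E6 were above all controls, but the gap between the groups was narrow. The KO level was 124% (95% interval 112 to 136%, edgeR adjusted p = 0.000585). E6 was at 118% (99.1 to 140%, adjusted p = 0.134), which did not pass. Ncl, Cab39 and Itm2c were the 3 of 10 neighbours whose KO and Chen2008-1 ranges did not overlap with KO higher, against 14.5% of all genes tested, and 0 of 10 had KO lower without overlap (19.0%).

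The genes of protein turnover differed less. Psmd1 had 7752 to 8265 CPM in the KO clones, 8230 CPM in E6 and 6424 to 7912 CPM in the Chen2008-1 clones. The groups overlapped, with 3 of 5 KO clones above all controls. The KO level was 113% (95% interval 105 to 122%, edgeR adjusted p = 0.00743), and E6 was at 116% (101 to 133%, adjusted p = 0.0951). Without the 4 clones under 400000 reads, the KO difference did not pass (log2 difference 0.16, adjusted p = 0.0522). Psmd1 spans Htr2b in RefSeq, a panel row with a mean of 6.5 reads per clone. Cops7b overlaps the protein-coding gene Pde6d there, which is not a panel row. The counter's use of strand is not given, so reads of Pde6d could have been counted for Cops7b. Cops7b was at 121% in KO (107 to 136%, adjusted p = 0.00736) and at 102% in E6 (81.5 to 127%, adjusted p = 0.906). Its KO clones ran from 1274 to 1559 CPM, all above E6 at 1169 CPM, which lay within the Chen2008-1 range of 979 to 1315 CPM. The difference between KO and E6 for Cops7b was 0.25 on the log2 scale (interval -0.09 to 0.59, adjusted p = 0.812) and did not pass.

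Of the genes of RNA and translation, Eif4e2 rose and Dis3l2 did not pass. Eif4e2 had 8383 CPM in B4, 9036 in C4, 8670 in G2, 7671 in H2 and 8243 in H4, and 9230 CPM in E6, against 6602 to 8122 CPM in the Chen2008-1 clones. All of these but H2 lay above the controls. The KO level was 116% (95% interval 107 to 126%, edgeR adjusted p = 0.00280) and that of E6 was 127% (110 to 147%, adjusted p = 0.0104). Dis3l2 had 395 to 571 CPM in the KO clones, 488 CPM in E6 and 446 to 659 CPM in the Chen2008-1 clones. Its KO level was 85.3% (72.9 to 99.7%, adjusted p = 0.0720). It passed as lower without Chen2008-1 clone H7 (adjusted p = 0.0239) and without KO clone C4 (adjusted p = 0.0337).

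Ptma and Armc9 did not pass in totals. Ptma had 2191 CPM in B4, 2259 in C4, 2309 in G2, 2039 in H2 and 1981 in H4 of the KO clones, 2331 CPM in E6 and 2147 to 2848 CPM in the Chen2008-1 clones, with a median of 2304. H2 and H4 lay below all controls and the other KO clones among them. The KO level was 90.5% (95% interval 81.2 to 101%, edgeR adjusted p = 0.103). RefSeq names 2 pseudogenes after Ptma, and reads of such copies could be split or shared by the counting, so its level is uncertain. Armc9 had 223 to 329 CPM in the KO clones, 325 CPM in E6 and 221 to 374 CPM in the Chen2008-1 clones, with a KO level of 87.3% (72.5 to 105%, adjusted p = 0.190). The sequence before the start of Ptma is shown because Ptma, like Ncl, is a long-known target of the transcription factor MYC, and their estimates were unlike (RefSeq, GRCm38.p6, chr1:86526307-86526556, plus strand, capitals mark GGGCGG).
Ptma: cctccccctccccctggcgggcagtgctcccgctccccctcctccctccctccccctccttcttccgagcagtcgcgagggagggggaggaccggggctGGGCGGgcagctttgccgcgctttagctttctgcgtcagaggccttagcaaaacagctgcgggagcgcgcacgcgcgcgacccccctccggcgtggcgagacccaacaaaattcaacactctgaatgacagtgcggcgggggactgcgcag

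Within the 250 bases before the start, 6 of the 10 neighbours held GGGCGG on either strand (Cab39, Ncl, C130036L24Rik, Ptma, Dis3l2 and Eif4e2), against 32.7% of 32851 RefSeq promoters. Those of Ncl and C130036L24Rik share bases and are not independent. CACGTG, the sequence bound by MYC with its partner MAX, was found in 1 of the 10 (Armc9), against 6.02% of all promoters. TATAAA was found in Psmd1 alone (12.4% of all promoters) and CCAAT in Armc9 alone (33.8%). GGAAG was found in 6 of the 10 (64.1%). These are matches of letters in 1 window, not binding sites. Bases after the start were not searched, so CACGTG in Ncl or Ptma outside this window would not be seen.

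The separate alleles show on which chromosome the differences lay. On the 129 copy 5 of 10 neighbours were higher in KO clones and 0 lower (all genes tested: 55.8% passed, 25.7% higher and 30.1% lower). On the CAST copy 5 were higher and 3 lower (58.2% passed, 25.3% higher and 32.9% lower). Ncl was at 185% on 129 (95% interval 165 to 208%) and 185% on CAST (161 to 212%), Cab39 at 141% and 155%, Itm2c at 124% and 124%, and Eif4e2 at 116% and 116%. These 4 passed on both copies. The 129 copy of Ncl had 1532 to 1871 CPM in KO and 790 to 1047 CPM in Chen2008-1 clones, and the CAST copy had 1900 to 2209 CPM and 883 to 1348 CPM. Neither copy overlapped between the groups. Psmd1 passed on 129 (116%, edgeR adjusted p = 0.00506) and was at 110% on CAST (adjusted p = 0.0625), while Cops7b passed on CAST (129%, adjusted p = 0.00397) and was at 115% on 129 (adjusted p = 0.0792). Under other settings, Psmd1 on CAST passed in 7 of 23 and Cops7b on 129 in 6 of 23, so neither difference is shown to lie on 1 copy.

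The 3 genes called lower on CAST were Armc9, Ptma and Dis3l2, at 73.8% (95% interval 57.2 to 95.2%, edgeR adjusted p = 0.0392), 85.3% (75.4 to 96.4%, adjusted p = 0.0266) and 81.2% (67.6 to 97.5%, adjusted p = 0.0483). On 129 they were at 99.9%, 96.0% and 90.3%. The calls depended on the scaling and on single clones. With DESeq2's size factors in edgeR the split on CAST was 6 higher and 0 lower. Without KO clone H4 it was 5 and 0, and without Chen2008-1 clone G3 it was 6 and 0. The difference between the copies is tested by the 129 over CAST ratio, which did not pass for any of these 3.

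In E6, where the deletion is on 129 alone, the neighbours that were higher were so on the unmodified copy too. Ncl had 1758 CPM on the modified 129 copy, 191% of Chen2008-1 (95% interval 156 to 234%, edgeR adjusted p = 0.000122), and 2286 CPM on the unmodified CAST copy, 210% (166 to 265%, adjusted p = 0.000234). Cab39 was at 160% on 129 (adjusted p = 0.0268) and 172% on CAST (adjusted p = 0.00411), and Eif4e2 at 124% (adjusted p = 0.0335) and 132% (adjusted p = 0.0151). These 3 were all of the calls on 129, where 30.8% of all genes passed, 14.3% higher and 16.5% lower. On CAST Itm2c passed as well, making 4 (32.7% of all genes passed, 14.7% higher and 18.0% lower). Its CAST copy was at 126% (adjusted p = 0.0359, and 0.0524 when scaled by library size alone), and at 101% on 129 (79.4 to 129%, adjusted p = 0.955). For comparison, B3gnt7 in E6 was at 25.3% on 129 (95% interval 17.6 to 36.5%) and 73.5% on CAST (52.5 to 103%).

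**Figure D3:**
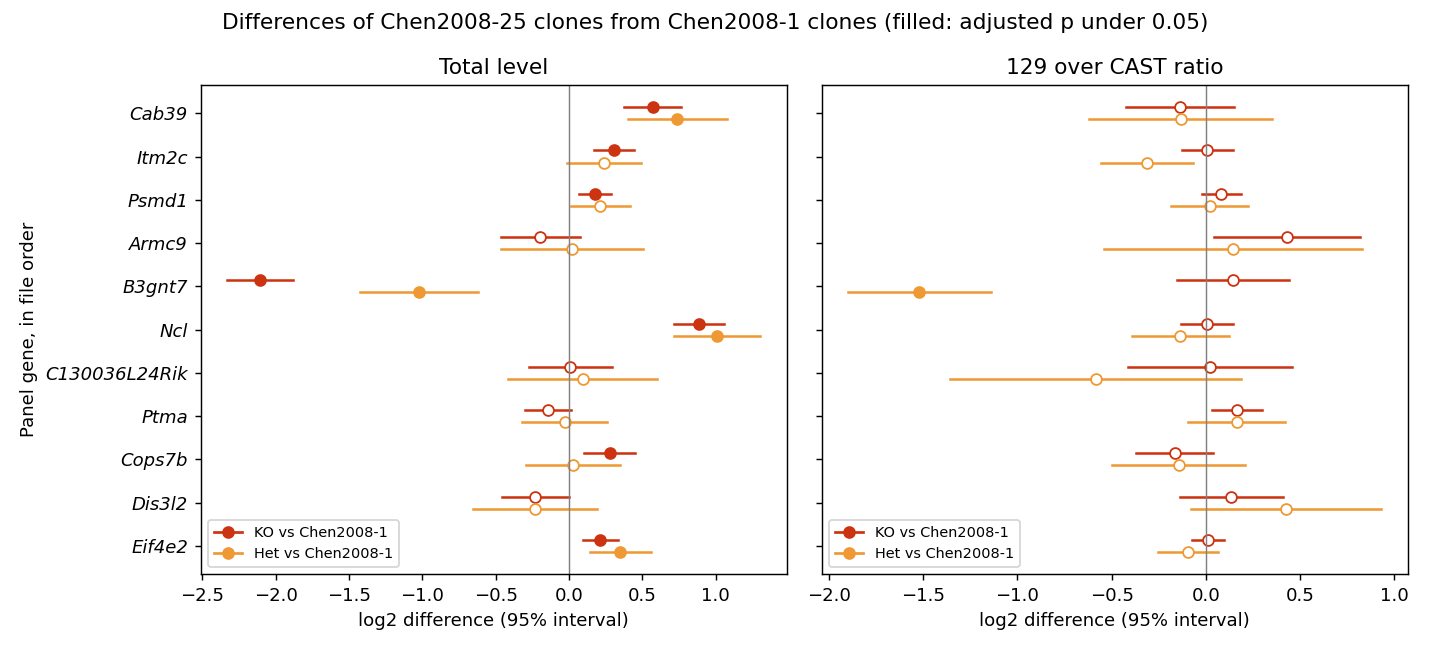
Log2 difference with its 95% interval (horizontal axes) of each neighbour and of B3gnt7, in file order (vertical axis), for total level on the left and for the 129 over CAST ratio on the right, in KO clones and in the Het clone E6 against the 8 Chen2008-1 clones. Filled points passed at an adjusted p of 0.05. In the ratio B3gnt7 in E6 is the only filled point, at -1.52.

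The ratio of 129 to CAST reads within a clone compares the modified with the unmodified chromosome in the same cells and does not depend on the level of the clone set. It was set against the ratio of the Chen2008-1 clones, so a difference in ratio between the sets can still enter. For the neighbours, 0 of 10 passed in E6 in edgeR's quasi-likelihood test, where 1.36% of 440 genes passed, 0.909% higher and 0.455% lower. The estimate of Itm2c, described below, was -0.31 on the log2 scale. Of the estimates 4 were positive and 6 negative, with a median of -0.11 (all genes tested: -0.01). The ratio of Ncl was at 91.1% of its Chen2008-1 value (95% interval 76.1 to 109%), that of Eif4e2 at 93.8% (84.0 to 105%) and that of Psmd1 at 101% (88.1 to 117%). For B3gnt7 in the same fit it was 34.9% (26.8 to 45.3%). The intervals of all 10 neighbours but C130036L24Rik (39.0 to 114%) lie above that of B3gnt7. For C130036L24Rik, with 115 reads in E6, the interval overlaps it, so a change of that size was not excluded at this depth.

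Itm2c in E6 had the smallest unadjusted p of the neighbours. Its 129 share was 27.7% in E6 (546 of 1970 reads, Wilson interval 25.8 to 29.7%), against 30.8 to 36.0% in the Chen2008-1 clones and 30.0 to 35.0% in the KO clones. E6 was thus the lowest of all 14 clones. The ratio was at 80.6% of the Chen2008-1 value (95% interval 68.1 to 95.4%, edgeR adjusted p = 0.334) and did not pass. The share of E6 lay outside the range of the 8 Chen2008-1 clones in 5 of 10 neighbours: above it for Ptma and Dis3l2 (13.3% of all genes) and below it for Itm2c, C130036L24Rik and Eif4e2 (15.0%). Of these 5 genes, 0 passed the test of the ratio.

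In the KO clones, deleted on both copies, 0 of 10 neighbours passed in the ratio in edgeR's quasi-likelihood test (11.9% of 445 genes passed, 5.17% higher and 6.74% lower). At an unadjusted p under 0.05 there were 2 neighbours, against 90 of the 445 genes. DESeq2 and limma called 0 neighbours. These 2 were Armc9, with a ratio of 135% (95% interval 103 to 176%, adjusted p = 0.169), and Ptma, with 112% (102 to 123%, adjusted p = 0.115). The 129 share of Armc9 was 53.8 to 65.6% in KO and 43.8 to 59.9% in Chen2008-1 clones, and that of Ptma was 52.8 to 56.3% and 47.9 to 53.1%. Both overlapped between the groups, as did the shares of the other 8 neighbours, while 1.87% of all genes were apart with KO higher and 2.58% with KO lower. For Ncl the ratio was at 100% (91.2 to 111%) and for Eif4e2 at 101% (95.2 to 107%).

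The copies were not equally abundant for every neighbour, whatever the genotype. The 129 share of Itm2c was 32.0% ± 2.02 (SD, n = 14) and below 50% in 14 of 14 clones. That of C130036L24Rik was 66.1% ± 5.39 (SD, n = 14) and below 50% in 0 of 14 clones. Ncl, transcribed away from it, had a 129 share of 45.8% ± 2.07 (SD, n = 14), also below 50% in all 14. Cab39 was at 43.0% ± 4.09 and below 50% in 13 of 14. The means of Dis3l2 (49.7% ± 3.96), Psmd1 (50.2% ± 1.63), Eif4e2 (51.2% ± 1.01) and Ptma (52.0% ± 2.23) were nearest to 50%, and those of Armc9 (54.6% ± 5.99) and Cops7b (54.9% ± 3.28) lay above. Capture probes and read mapping can favour 1 allele, and their part in these shares was not tested.

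**Figure D4:**
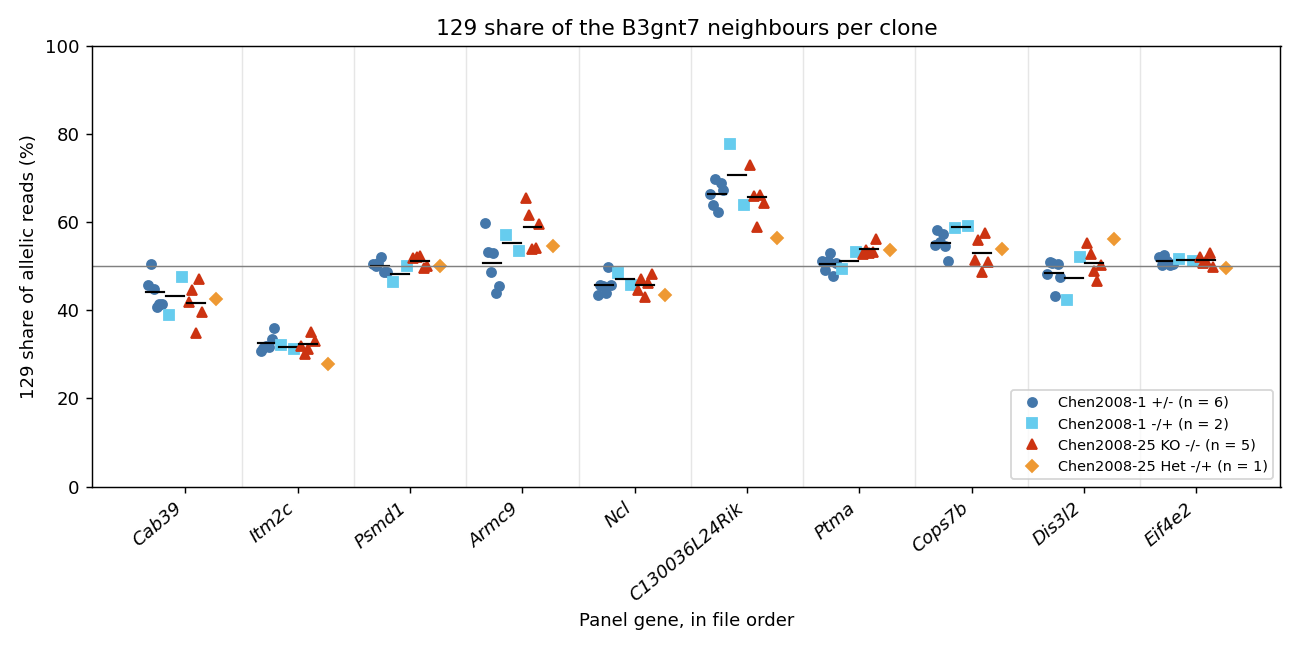
129 share of allelic reads in percent (vertical axis) of each neighbour in each clone, by gene in file order (horizontal axis). Points are clones, marked by group, black bars are means of groups with more than 1 clone, and the grey line is 50%. Itm2c lies below and C130036L24Rik above 50% in every clone, and the KO clones overlap with the Chen2008-1 clones in all 10 genes.

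A comparison within the Chen2008-1 clones gives the size of differences between groups that share the other enhancer's deletion. Between the 2 Chen2008-1 -/+ and the 6 Chen2008-1 +/- clones, 0 of 10 neighbours passed in total level in edgeR (0.00% of 444 genes). At an unadjusted p under 0.05 there were 0 neighbours, against 9 of all genes tested. In the ratio 0 of 10 passed as well (0.911% of 439 genes), again with 0 at an unadjusted p under 0.05 (21 of all genes tested). DESeq2 and limma called 0 neighbours in both. The largest estimates in total level were those of Cab39 (0.28, 95% interval -0.03 to 0.59) and Ncl (0.18, interval -0.11 to 0.47) on the log2 scale. With 2 clones in 1 group, of which D10 had the fewest reads, differences of the size of Psmd1, Eif4e2, Cops7b or Cab39 above could be missed. The interval of Cab39 here holds its KO difference of 0.57.

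The KO clones and E6 belong to the same clone set. In total level 0 of 10 neighbours passed between them in edgeR (0.223% of 448 genes, which is B3gnt7 alone), with 0 at an unadjusted p under 0.05 and 0 in DESeq2 and limma. Ncl differed by -0.12 (KO minus E6, 95% interval -0.44 to 0.20) and Cab39 by -0.17 (interval -0.53 to 0.19), while B3gnt7 differed by -1.08 (interval -1.45 to -0.71). Ncl and Cab39 were thus higher than in the Chen2008-1 clones both in the KO clones and in E6, a single clone. Both share a clone set and their controls, so in this rise the deletion cannot be told apart from the set. These intervals bound how far the KO clones and E6 could differ.

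Other panel genes were listed for the neighbours' pathways by symbol, often by its first letters alone, which does not establish a gene's task. They did not all move with the neighbours. Of 5 genes listed in this way for the nucleolus and ribosome assembly, 3 were higher in the KO clones and 1 lower in totals. In this comparison 62.1% of all genes passed (28.6% higher and 33.5% lower). Utp6, a part of the small-subunit processome, rose by 0.71 (SE 0.05, edgeR adjusted p = 1.15e-08), Npm1, which encodes nucleophosmin, by 0.25 (SE 0.10, adjusted p = 0.0380) and the helicase gene Ddx59 by 0.22 (SE 0.07, adjusted p = 0.00762), while the helicase gene Ddx47 fell by 0.43 (SE 0.06, adjusted p = 6.25e-06). Of 4 other genes whose symbols start with Eif, Eif4a3 was higher (0.43, adjusted p = 0.0219), Eif3d lower (-0.19, adjusted p = 0.0102) and 2 did not pass. Ube2m, the NEDD8-conjugating enzyme gene, was lower (-0.39, adjusted p = 0.000159) in the KO clones and at -0.09 (adjusted p = 0.627) in E6. The exosome gene Exosc4 was at -0.01 (adjusted p = 0.908). Myc, which encodes a transcription factor known to act on Ncl, was lower by 0.89 (SE 0.15, adjusted p = 5.25e-05) in the KO clones and at -0.44 (SE 0.27, adjusted p = 0.223) in E6, where Ncl was at 201%. Its part in the level of Ncl was not tested.

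For each neighbour, the panel genes with the highest Pearson r of log2 CPM over the 14 clones were found, and r was taken again after the mean of each group was removed. Genes that differ between the clone sets correlate over all clones for that reason alone. The panel gene most like Ncl was Hnrnph1 (r = 0.97, 0.52 within groups). Cab39 was most like Ncl (0.93, 0.37 within groups) and Eif4e2 most like Cab39 (0.88, 0.27 within groups). For Itm2c the closest was Ranbp17 (0.95, 0.85 within groups), and for Dis3l2 it was Cd59b (0.85, 0.86 within groups). Ptma was most like Tsix (0.79, 0.73 within groups) and Xist (0.79, 0.73 within groups), which are transcribed from opposite strands of overlapping genes. C130036L24Rik had no close partner, with a highest r of 0.57 (Stx12). These values describe 14 clones that share a panel and its scaling, and the closest of all genes tested is high by selection.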

How the data were processed

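Allele-resolved RNA reads of 472 panel genes were used for 14 clones. The deposited counts are whole numbers of reads per gene with a column for each allele, per the file headers, and had not been normalized. The submitters' processing notes name mm9 as the genome build. The aligner, the allele assignment, the counter and its use of strand are not given in the sources used here. Genotypes were text of another kind in the deposited genotype table, per the file headers, which gave all clones 1 hybrid selection batch and 1 probe set. Of the counts from 1 to 19, 78.5% to 88.6% per clone were even, as when both mates of a fragment are counted, so Wilson intervals, which hold counting error alone, are narrower than they should be. Tsix|linc2092, identical in all clones to Tsix, was left out. Over the 26 pairs of clones sharing a genotype, chi-square divided by its degrees of freedom was 3.47 to 25.9, where counting both mates alone would give about 2. Nothing states separate derivations beyond the clone names, so p-values measure the spread between clones.

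Tests used R 4.3.3 and edgeR 4.0.16 (quasi-likelihood, TMM factors from totals), with DESeq2 1.42.0, limma 3.58.1 and exact permutation as alternatives. Genes with a mean of at least 10 reads per clone were tested, and p-values were Benjamini-Hochberg adjusted over all of them (threshold 0.05). Totals and single alleles were fitted in 3 groups over all 14 clones. Ratios were fitted on both allele columns over the groups compared, with clone and allele as terms and the interaction of allele and group as the result. The code was tested on simulated data. All 10 neighbours are named by rule, and for each the 2 genes of most similar profile may be named. The members, lists and rules were chosen with earlier results of these data known. Of the lists of related genes, those of the LKB1 complex, BRICHOS proteins and chromatin chaperones had 0 other members in the panel. All 10 neighbours matched RefSeq by symbol, and promoter sequences are from RefSeq's GRCm38.p6 table.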

Additional observations from a re-analysis of the deposited data

Results flagged for a closer look

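Of 40 checks for a clone far from the others of its group (total CPM and 129 share of each neighbour, in the 6 Chen2008-1 +/- and the 5 KO clones), 3 gave a hit, and chance gives about 1 in 20. KO clone H4 was lowest in Cab39, at 644 CPM, with the next clone at 744 and the highest at 779 CPM. The same clone had the highest 129 share of Ptma in its group, 56.3%, where the next clone was at 53.7% and the lowest at 52.8%. Chen2008-1 clone H7 was highest in Ptma among the +/- clones, at 2848 CPM, with the next at 2375 and the lowest at 2147 CPM. H4 and H7 were among the 4 clones with fewer than 400000 reads.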

How the results depend on the processing

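Under another test, scaling or filter, halved counts or the +/- controls alone, 6 neighbours passed in KO totals. Of all 448 genes, 281 passed there in DESeq2 and 269 in limma. The +/- controls alone were used for the KO clones only, not for E6. When single clones were left out, 6 to 7 neighbours passed in KO totals, as did 262 to 282 of all genes tested. On the 129 copy of KO clones 5 to 6 neighbours passed (203 to 241 of all genes tested). On the CAST copy it was 5 to 8 neighbours (213 to 234 of all genes tested), with 5 without KO clone H4. In E6 the CAST call of Itm2c was lost with library size alone. The CAST calls of Armc9 and Dis3l2 were each lost in 15 of 23 alternatives and that of Ptma in 6. Ncl passed in all 25 alternatives in KO totals (log2 difference 0.86 to 0.96) and all 22 in E6 (0.97 to 1.06), and Cab39 likewise (0.54 to 0.66 and 0.69 to 0.79). Leaving out the 4 shallow clones, an alternative chosen after seeing the data, ended the call of Psmd1 in KO totals. No ratio of a neighbour passed under any alternative, and no called value changed sign. No paired analysis was possible because the replicate numbers only name clones in accession order. Depth limits the ratios of C130036L24Rik and Armc9 most.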

Other observations

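The panel rows that sit between the neighbours in the file had few reads. Htr2b, Nppc and Alppl2 had means under 10 reads per clone and were not tested. The row 2810459M11Rik, between Itm2c and Psmd1, was higher in E6 by 1.58 on the log2 scale (SE 0.52, edgeR adjusted p = 0.0237) and in the KO clones by 0.78 (SE 0.34, adjusted p = 0.0513), on a mean of 13.9 reads per clone. Efhd1, next to Eif4e2, was at -0.37 in the KO clones (SE 0.23, adjusted p = 0.170). Csrp1, the row after Efhd1 in file order, is named here after its values were seen. How far it lies from the neighbours on the chromosome was not measured. On a mean of 5479 reads per clone it was at -0.62 on the log2 scale in the KO clones (SE 0.07, edgeR adjusted p = 9.31e-07) and at -0.58 in E6 (SE 0.14, adjusted p = 0.00327).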
